A study of Saccharomyces cerevisiae with 12 samples.

Results

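The genes described here are ABF1 and 4 other genes for general regulatory factors of budding yeast (Saccharomyces cerevisiae), REB1, CBF1, MCM1 and TBF1. They were chosen by name: a probe set counted as a member if every gene symbol the platform annotation gives it was on this list, and the probe set of highest mean was to stand for the gene. Each gene had a single such probe set, so the members are 5 genes of 5656 genes with a probe set of their own. ABF1 was picked because an earlier reading of these arrays had shown it with a higher signal in the abf1 mutant. Its values in that comparison are therefore given as a description, with no test.

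General regulatory factors are DNA-binding proteins that sit at many promoters, keep nucleosomes off them and help other activators work. Abf1 (ARS-binding factor) also binds replication origins and the silencers of the silent mating loci. Reb1, a Myb-type protein, also acts in transcription termination. Cbf1, a basic helix-loop-helix protein, binds centromeres and the promoters of methionine synthesis genes. Mcm1, a MADS-box protein, works with partner proteins on mating-type genes, cell-cycle genes and arginine genes, and Tbf1 binds subtelomeric repeats and snoRNA gene promoters. Rap1, the factor mutated in the other strain, belongs to the same class.

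The study used total RNA on 12 1-colour Affymetrix arrays in 4 groups of 3: an abf1 ts (temperature-sensitive) mutant, the wild-type control of that mutant, a rap1 ts mutant, and the wild-type control of the rap1 mutant. Growth was at 25 C, followed by 1 h at 37 C in all groups, a temperature at which both mutant proteins lose DNA binding, per the design text. The labels name YPD medium for abf1 ts, rap1 ts and the rap1 wild type, and no medium for the abf1 wild type. They give no ts allele, strain background, mating type or plasmid, so the signal of ABF1 or RAP1 does not check the mutation. Arrays are numbered 1 to 3 in each group and are not said to come from separate cultures. The p-values therefore cover only the variation among these arrays, which may be technical.

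Signals are MAS5 values on a linear scale, scaled by the authors to a common mean per array, and the median signal per array was 390.4 to 598.3. Precision is limited by there being 3 arrays per group. The a-specific mating genes had a summed signal of 16621 to 51707 per array over 7 genes. The alpha-pheromone gene MF(ALPHA)1, which defines the opposite mating type, had group means of 97.4 to 178, and the a-factor receptor gene STE3 of 76.8 to 134. Over all 5 alpha-specific genes the summed signal per array was 2804 to 3902 in abf1 ts and 1163 to 1328 in the abf1 wild type, and 525 to 1504 in rap1 ts and 1121 to 1483 in the rap1 wild type. AFB1 gave most of it in abf1 ts, with a mean of 2439, against 694 in the abf1 wild type. The part of these genes in the results was not tested. In these whole-culture RNA samples, fewer cells carrying an RNA and less of it per cell cannot be told apart.

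ABF1 (YKL112W) asks whether the level of the factor's own RNA differs once the protein no longer binds DNA. In abf1 ts its signal was 3263.3, 1706.6 and 4556.9 on arrays 1, 2 and 3, against 1000.9, 602.8 and 1422.8 in the abf1 wild type. The lowest mutant array lay above the highest wild-type array, so the groups did not overlap. Groups that did not overlap with the mutant higher were found for 2.28% of the 4687 features tested. The means were 3176 ± 1427 in abf1 ts and 1009 ± 410.1 in the abf1 wild type (SD, n = 3 each). Arrays of equal number gave closely similar ratios of mutant to wild type, 3.26 for array 1, 2.83 for array 2 and 3.20 for array 3. The spread within each group was thus mostly a spread that the mutant and wild-type arrays of equal number shared.

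The fitted log2 difference of ABF1, taken on log2(signal + 12.6), was 1.61 with an SE of 0.62 without a block and 0.32 with the array number as a block. By size this was rank 2 from the top of 4687 features, behind AFB1, an alpha-specific gene with a similar name. Leaving out single arrays gave differences from 1.29 without wild-type array 2 to 2.005 without abf1 ts array 2. Ratios of 3' to 5' signal of the actin gene ACT1, which rise with RNA breakdown or incomplete labelling, were 32.7, 3.47 and 4.41 in abf1 ts and 8.73, 11.4 and 17.4 in the abf1 wild type (2-sided exact permutation p = 0.6). The highest of these 6 ratios was that of abf1 ts array 1. The part of RNA quality in the ABF1 values was not tested.

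**Figure D1:**
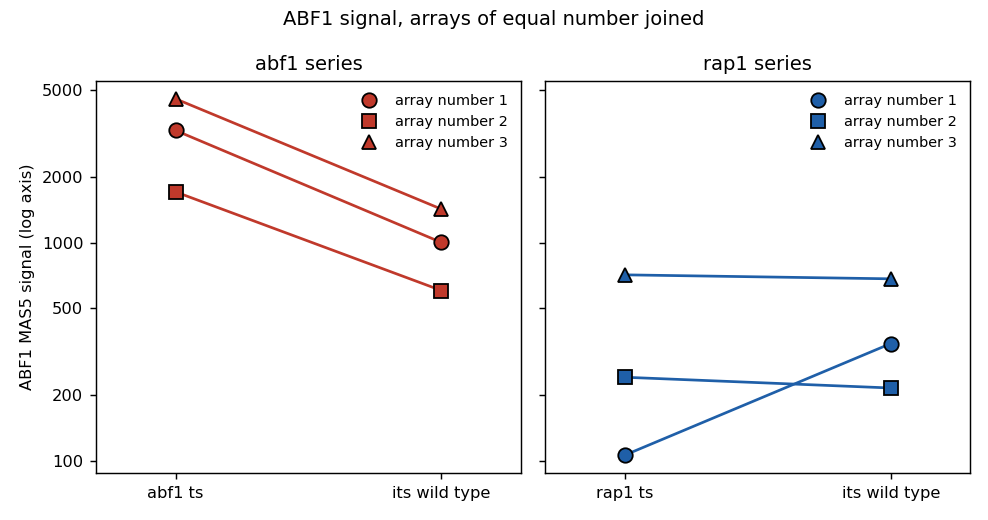
ABF1 MAS5 signal (log axis) in each mutant (left) and its wild type (right), with arrays of equal number joined by a line. In the abf1 series the 3 lines run nearly parallel, at ratios of 2.83 to 3.26, while in the rap1 series only array number 1 shows a clear difference between the groups.

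In the rap1 series ABF1 was dimmer in both groups. Its signal was 106.2, 241.5 and 711.5 in rap1 ts, against 344.4, 215.6 and 682.2 in the rap1 wild type. These groups overlapped, and the mutant was lower in pair 1 alone. The log2 difference was -0.46 (95% interval -1.80 to 0.88, limma adjusted p = 0.679), and 0.16 without rap1 ts array 1. With the array number as a block the 95% interval was -1.17 to 0.26 (limma adjusted p = 0.308). Neither interval shows that ABF1 stayed the same in rap1 ts. The ACT1 ratio of 3' to 5' signal was 48.4 on rap1 ts array 1, against 20.1 and 28.0 on rap1 ts arrays 2 and 3. The part of RNA quality in these ABF1 values was not tested.

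Ordered by mean log2 signal, ABF1 was highest in abf1 ts, then the abf1 wild type, the rap1 wild type and rap1 ts. Of the neighbours in this order, abf1 ts and the abf1 wild type did not overlap. The abf1 wild type and the rap1 wild type did overlap, at means of 1009 ± 410.1 and 414 ± 241, as did the rap1 wild type and rap1 ts. Every abf1 ts array lay above all 9 arrays of the other groups. The share of all features with this order was not counted, and ABF1 was picked for its signal in abf1 ts. Array 3 carried the highest ABF1 signal in 4 of 4 groups, and array 2 the lowest in 3 of 4. This was not particular to ABF1. CBF1 had the same counts, and TBF1 was also highest on array 3 in 4 of 4 groups.

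ABF1 lies beside RAD27, a flap endonuclease gene that is read from the other strand away from ABF1, and KTI12, a gene of tRNA modification. In abf1 ts these neighbours had log2 differences of -0.42 (RAD27) and 0.06 (KTI12), neither of them called (limma adjusted p = 1.00 each). The next genes out were APN1, of base excision repair, with 0.14, and HAP4, a respiration activator gene, with 0.16. The 1.61 of ABF1 is the value it was picked for, so its lying above these 4 genes is not a result. The choice to look at neighbours was made after the data were seen.

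**Figure D2:**
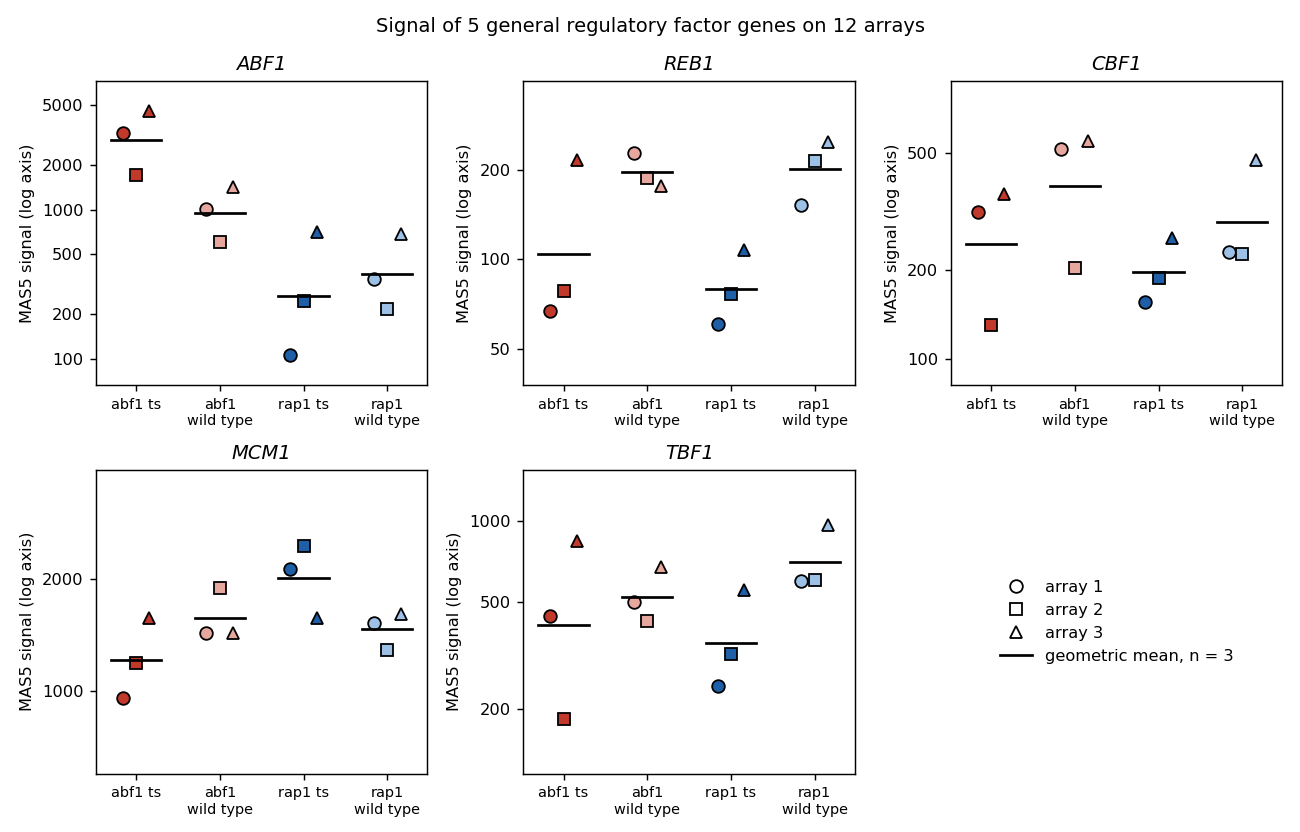
MAS5 signal (log axis) of the 5 genes on each of the 12 arrays, by group. Symbols give the array number and bars the geometric mean of 3 arrays. ABF1 in abf1 ts stands above all other groups, whereas for REB1 and TBF1 the rap1 ts arrays lie below the rap1 wild-type arrays.

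REB1 (YBR049C) lay under the filter on low values, which removed features under the 20th percentile of mean log2 signal. In rap1 ts its signal was 60.3, 76.5 and 107.8, against 152.8, 213.9 and 249.5 in the rap1 wild type. The mutant arrays all lay under the wild-type arrays (2-sided exact permutation p = 0.1, which is as low as 3 against 3 arrays can reach), and mutant values stood at 0.395, 0.358 and 0.432 of their wild-type partners. Groups that did not overlap with rap1 ts lower made up 9.63% of the 5859 unfiltered features. In a fit with no filter the log2 difference was -1.22 (SE 0.40, limma adjusted p = 0.146), and REB1 fell with the array number as a block (blocked SE 0.35, limma adjusted p = 0.0354). The blocked call was lost when pair 1, 2 or 3 was left out, with limma adjusted p of 0.0946, 0.0796 and 0.101.

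In abf1 ts REB1 had a signal of 66.8, 78.1 and 216.9, against 228.7, 187.7 and 176.5 in the abf1 wild type. Arrays 1 and 2 were lower in the mutant, array 3 was not, and the groups overlapped. The log2 difference was -0.82 (95% interval -1.70 to 0.05, limma adjusted p = 1.00 with no filter and 0.606 with the block). The mean levels ran from the rap1 wild type through the abf1 wild type and abf1 ts to rap1 ts, and each group overlapped the next in this order.

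TBF1 (YPL128C) passed the filter. Its signal was 243.2, 318.7 and 554.5 in rap1 ts, against 595.6, 602 and 965.9 in the rap1 wild type. No mutant array reached the lowest wild-type array (exact permutation p = 0.1, the smallest possible), and the ratios of the pairs were 0.408, 0.529 and 0.574. Of the 4687 tested features, 10.5% had rap1 ts arrays all below the wild type. The log2 difference was -0.98 (SE 0.48, 95% interval -2.02 to 0.07), which did not pass without a block (limma adjusted p = 0.247). With the array number as a block TBF1 fell (blocked SE 0.29, limma adjusted p = 0.0362). That call was lost without pair 1, 2 or 3 (limma adjusted p = 0.122, 0.0568 and 0.0909) and with the number as a block over both series (0.0502).

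In abf1 ts TBF1 had 441, 183.6 and 839.2, against 498.8, 423.4 and 670.3 in the abf1 wild type. The 2 groups overlapped throughout, and the mutant was lower in pairs 1 and 2 and higher in pair 3. The log2 difference was -0.34 (95% interval -1.38 to 0.71, limma adjusted p = 1.00), and 0.22 without abf1 ts array 2. By mean level the order was the rap1 wild type, the abf1 wild type, abf1 ts and rap1 ts, with overlap between each group and the next.

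CBF1 (YJR060W) lay just under the filter, with a mean of 8.15 on the log2 scale against a minimum of 8.16. Its signal was 315.3, 130.2 and 361.1 in abf1 ts, against 512.8, 202.8 and 546.1 in the abf1 wild type. The groups overlapped because arrays of number 2 were low in both, yet the mutant was lower in each pair, at ratios of 0.615, 0.642 and 0.661. In rap1 ts it was 156.2, 187.2 and 257.5, against 230.4, 226.7 and 470.8 in the rap1 wild type. Here too the mutant was lower in 3 of 3 pairs and the groups overlapped. With no filter the log2 differences were -0.62 in abf1 ts (95% interval -1.65 to 0.41, limma adjusted p = 1.00, and 0.538 with the block) and -0.54 in rap1 ts (95% interval -1.57 to 0.49, limma adjusted p = 0.531, and 0.125 with the block). Neither passed, and all pairs of the 4 groups overlapped.

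MCM1 (YMR043W) passed the filter. In abf1 ts it had a signal of 957.4, 1187.5 and 1568.1, against 1431.3, 1893.4 and 1428.8 in the abf1 wild type. In rap1 ts it had 2131.1, 2463.2 and 1569.6, against 1519.3, 1287 and 1609.5 in the rap1 wild type. Arrays 1 and 2 were thus lower in abf1 ts and higher in rap1 ts, while array 3 hardly differed in either series. The log2 differences were -0.37 in abf1 ts (95% interval -0.95 to 0.21, limma adjusted p = 1.00) and 0.46 in rap1 ts (95% interval -0.12 to 1.04, limma adjusted p = 0.320). The difference between the 2 mutant effects was -0.83 (SE 0.38, unadjusted p = 0.0478, limma adjusted p = 0.391, and 0.140 with the block), so it did not pass. The order by level was rap1 ts, the abf1 wild type, the rap1 wild type and abf1 ts, and only the ends of this order did not overlap. The share of all features without overlap between rap1 ts and abf1 ts was not counted, so this is a description.

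**Figure D3:**
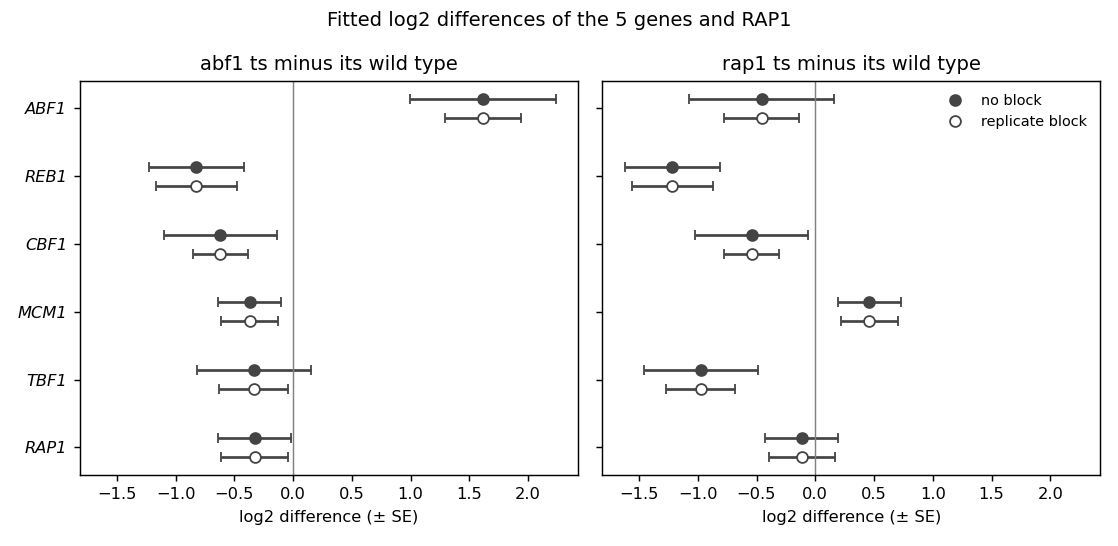
Log2 difference (± SE) of each gene and of RAP1 between abf1 ts and its wild type (left) and between rap1 ts and its wild type (right), fitted with no filter, without a block (filled) and with the array number as a block (open). ABF1 has the single positive difference in the abf1 series, 1.61, and MCM1 the single positive difference in the rap1 series, 0.46.

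Counted over the genes, 0 of the 2 testable members other than ABF1 were called in abf1 ts by limma, with or without the block, and 0 of the 2 had an unadjusted p under 0.05 without it. Over all features 0.0427% were called in either direction without the block, 0.213% with it, and 3.09% had an unadjusted p under 0.05. With no filter 0 of 4 were called, against 0.0341% of features. In rap1 ts 0 of 3 testable members were called when no block was used, where 0.405% of features were called, and 0 of 3 had an unadjusted p under 0.05, against 22.3% of features. With no filter 0 of 5 were called, against 0.358%. With the block 1 of 3 was called, TBF1, against 25.0% of all features in either direction, and with the block and no filter 2 of 5, REB1 and TBF1, against 19.8%. The difference of the mutant effects gave 0 calls among the members other than ABF1 and 1 at an unadjusted p under 0.05, MCM1. Over all features 0% were called without the block and 9.09% with it, and 12.7% had an unadjusted p under 0.05. Between the wild types 0 of the 2 testable members other than ABF1 were called, with 0 of 2 at an unadjusted p under 0.05, against 0% of features called and 3.33% at an unadjusted p under 0.05.

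REB1 and TBF1 were lower in rap1 ts in arrays whose ACT1 ratio of 3' to 5' signal was 48.4, 20.1 and 28.0, against 18.2, 6.58 and 2.56 in the rap1 wild type (exact permutation p = 0.1). The part of RNA quality in their values was not tested. RAP1 had a signal of 584.6, 1016.9 and 1088.9 on the rap1 ts arrays, against 1089.7, 857.8 and 886 on the rap1 wild-type arrays, and its log2 difference of -0.12 did not pass (limma adjusted p = 0.842).

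Likeness to ABF1 was measured as Pearson's r over the log2 values of the 12 arrays, which share the authors' scaling and the array numbers, and is a description. The closest of 4543 single-gene features was DAL4, the allantoin permease gene (r = 0.935). It averaged 446 in abf1 ts, 311 in the abf1 wild type, 226 in rap1 ts and 263 in the rap1 wild type. VIR1, a gene of the meiotic mRNA methylation machinery, followed at r = 0.921, then the arginase gene CAR1 (0.918), the phosphogluconate dehydrogenase gene GND2 (0.913) and CPP3 (0.912). CPP3 came nearest to ABF1 in size, with a log2 difference of 1.02 in abf1 ts and means of 9281 in abf1 ts and 4550 in the abf1 wild type. All 5 had higher means in both abf1 groups than in both rap1 groups, as ABF1 had. This order goes with their choice by likeness to ABF1 on the same arrays and is not a separate result.

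For the other factors 2 genes each were taken by the same measure. The glutamine permease gene GNP1 (r = 0.897) and the ornithine decarboxylase gene SPE1 (0.877) were closest to REB1. Nearest to CBF1 stood PHM6 (0.926) and YER034W (0.902). SRP40, of the nucleolus (0.919), and the lysophospholipase gene NTE1 (0.913) were closest to TBF1. MCM1 was less closely followed, by the mitochondrial import gene TIM8 (0.827) and the endoplasmic reticulum gene YOP1 (0.770).

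Genes that earlier work tied to Abf1 sites showed little common movement in abf1 ts. Of 20 listed, 15 were tested, 7 lay below 0 and 8 above, with a median log2 difference of 0.08 beside -0.03 over all features. Of these 15, 0 were called by limma with or without the block, and 3 were lower at an unadjusted p under 0.05, against 3.09% of all features in either direction. These 3 were ARO3, an aromatic amino acid synthesis gene (-0.93, SE 0.41, adjusted p = 1.00), TRP3, of tryptophan synthesis (-0.75), and RPO31, the largest subunit gene of RNA polymerase III (-0.67). RPO31 had a signal of 1566 ± 239 in abf1 ts and 2518 ± 539 in the abf1 wild type (SD, n = 3 each). RPO31 was named after its value was seen, to complete the 3.

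In rap1 ts the same list had a median of -0.10 beside 0.09 over all features, with 0 of 15 called in the fit that has no block (unadjusted p under 0.05 in 4 lower and 1 higher) and 4 lower with it. The counts of all lists in rap1 ts stand against 22.3% of features at an unadjusted p under 0.05 without the block and 25.0% called with it, and 4 of 15 is close to the second share. They also stand beside the higher 3' to 5' ratios of the rap1 ts arrays given above, whose part was not tested. The glycolysis gene PGK1 fell by 1.26, the ribosomal protein gene RPL3 by 1.20, the isoleucine synthesis gene ILV1 by 1.04 and the polymerase subunit gene RPC40 by 1.01, each with the block. Reb1-site genes had a median of -0.14 in abf1 ts, with 0 of 7 called, and -0.36 in rap1 ts, with 3 of 7 lower with the block, against 25.0% of features called. Besides ILV1 these were the glycolytic genes ENO1 (-2.12) and PGI1 (-2.02). Without the block 0 of 7 were called in rap1 ts, with 3 at an unadjusted p under 0.05, against 22.3% of features.

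Sulfur assimilation genes with Cbf1 sites had a median of 0.24 in abf1 ts, 12 of 16 above 0, with 0 called. In rap1 ts 15 of 16 were below 0, with a median of -1.29, 0 called unless the block was used (8 had an unadjusted p under 0.05, against 22.3% of features) and 10 lower with it, against 25.0% of features called. The methionine synthase gene MET6 (-2.99), the cystathionine lyase gene STR3 (-2.39) and the S-adenosylmethionine synthetase gene SAM2 (-1.99) had the largest falls with the block. Among the partners of Cbf1, the activator gene MET4 rose with the block in rap1 ts (0.85, limma adjusted p = 0.0324), while MET28, which encodes a cofactor of Met4, fell (-1.31, limma adjusted p = 0.0110). CBF1 itself was lower in 3 of 3 pairs of both series, as given above, without passing.

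Mcm1 targets were read in 3 groups. Of 14 tested G2/M genes 1 fell in rap1 ts without a block, where 0.405% of all features were called. It was YHP1, a homeobox repressor gene (-2.27, SE 0.37, limma adjusted p = 0.0154). With the block 4 fell, including the transcription factor gene SWI5 (-1.73) and the cyclin gene CLB1 (-1.16), and the kinase gene KIN3 rose (0.91), against 25.0% of features called in that fit. Of 9 tested M/G1 genes the cyclin gene CLN3 fell (-1.14) and the replication gene CDC45 rose (0.94) with the block, a share near that of all features, and 0 were called without it (0 at an unadjusted p under 0.05). Of 5 tested arginine genes ARG1 fell without a block (-2.28, SE 0.39, limma adjusted p = 0.0206), against 0.405% of features called. With the block ARG3 fell too (-2.05), against 25.0% of features called. In abf1 ts the medians of the 3 groups were -0.07, -0.08 and 0.40, with 0 called in each with or without the block and 0 at an unadjusted p under 0.05 without it. The largest values there were CLB1 (-0.53), CDC5, a mitotic kinase gene (-0.47), CLN3 (-0.35), CDC45 (-0.33), CAR2, of arginine breakdown (0.72), and ARG1 (0.52).

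**Figure D4:**
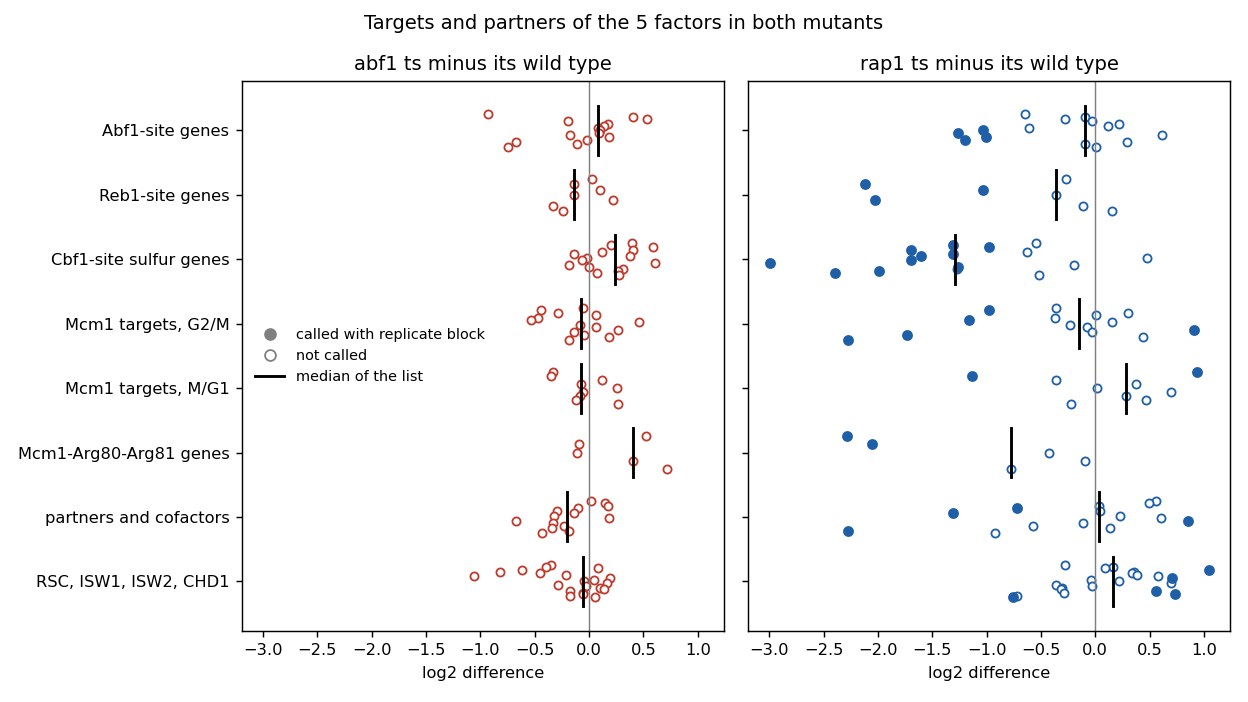
Log2 difference of each tested gene in 8 lists of targets and partners of the 5 factors, in abf1 ts (left) and rap1 ts (right) against their wild types. Filled points were called with the array number as a block and bars give each list's median; no gene of these lists was called in abf1 ts, and the sulfur genes with Cbf1 sites had the lowest median in rap1 ts, -1.29.

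Among 14 tested DNA-binding partners and cofactors, 0 were called in abf1 ts (median -0.21, and 0 at an unadjusted p under 0.05 when no block was used), where MET4 had -0.68 and YOX1, a homeobox repressor gene, -0.43. In rap1 ts YHP1 fell without a block, where 0.405% of all features were called. With the block the forkhead gene FKH1 fell too (-0.72), beside the MET4 and MET28 calls above, against 25.0% of features called. The remodellers that work beside these factors, RSC with the ISW1, ISW2 and CHD1 enzymes, had a median of -0.06 in abf1 ts and 0.16 in rap1 ts over 21 tested genes. None of the 21 was called in abf1 ts by limma with or without the block. Without it 2 were lower at an unadjusted p under 0.05, against 3.09% of all features in either direction. The lowest values were those of ISW2, an ATPase gene (-1.06, SE 0.32, adjusted p = 0.585), and IOC3 of the Isw1 complex (-0.82). In rap1 ts 0 were called in the fit with no block, where 1 lower and 2 higher had an unadjusted p under 0.05, and with the block STH1, the RSC ATPase gene, fell (-0.76) and 4 rose. These 5 of 21 are near the 25.0% of all features called with the block. IOC2 (1.04), RTT102 (0.74) and ITC1 (0.70) had the largest values of the 4 that rose.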

How the data were processed

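The authors' deposited intensity values are MAS5 probe set signals, according to the submitters' processing notes (per the labels, no version or setting is named). With 2% of probe sets trimmed at either end, array means were 1500.7 to 1501.3, and 2 arrays shared at most 36 identical values. The table held 9275 non-control probe sets. The brightest probe set on average stood for each gene, giving 5859 features, and those under the 20th percentile of mean log2 value were left out, which left 4687. ABF1, MCM1 and TBF1 passed; REB1 and CBF1 did not and were fitted with no filter.

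limma 3.58.1 in R 4.3.3 fitted 4 group means to log2(signal + 12.6), with a variance trend; the offset 12.6 is the 10th percentile of the non-control signals. P-values were adjusted by Benjamini-Hochberg across every feature. A call is an adjusted p under 0.05. Fold changes on this scale understate changes of dim genes. The fit was tested on simulated data. Deviations of mutant and wild-type arrays of equal number correlated at 0.25 to 0.824 in every pair, above the minimum of 0.1, so the arrays are taken as paired by number, a reading of the data that the labels do not state; the block is this number within each series. Members, lists and rules were chosen with earlier results of these data known. Named genes were the members, the 5 genes most like ABF1 and 2 most like each other member, and up to 3 called genes per list and direction, or 2 of largest value where none was called. Beyond this rule, all 4 Abf1-site genes and all 4 haploid-specific genes called in rap1 ts with the block were named. Each gene flagged for a closer look was named too. The planned motif search was not run. Gene names and neighbours came from a gene table of assembly R64.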

Additional observations from a re-analysis of the deposited data

Results flagged for a closer look

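For 20 of the 111 tested genes of the target, partner and marker lists the 2 mutant effects differed by the test of the difference itself, in the fit with the array number as a block (limma adjusted p from 0.0116 to 0.0483). Over all features 9.09% did so. The lists were chosen with earlier results of these data known, so the count beside this share does not test the lists. None of the 20 passed without the block (limma adjusted p from 0.0970 to 0.524). Values below are the log2 effect in abf1 ts minus that in rap1 ts.

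Of these genes 8 were sulfur genes with Cbf1 sites. MET6, STR3, SAM2 and MET17 had differences of 3.60, 2.47, 2.26 and 2.09, and MET3, MET5, MET16 and MET14 of 1.99, 1.62, 1.57 and 1.51. The arginine synthesis gene ARG1 had 2.81. PGI1, of glycolysis, had 2.24, YHP1 2.09, SWI5 1.68 and RPC40 1.19. In each of these sulfur, arginine and other genes the rap1 ts effect was the larger in size and negative. AFB1, an alpha-specific gene, had 2.10, with effects of 1.76 in abf1 ts and -0.33 in rap1 ts.

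Negative differences were found for IOC2 (-1.66), ISW2 (-1.64), MET4 (-1.53), CDC45 (-1.27), RPO31 (-0.96) and RTT102 (-0.80). ISW2 had effects of -1.06 in abf1 ts and 0.58 in rap1 ts, and RPO31 of -0.67 and 0.29 in the same order, none of which passed alone.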

How the results depend on the processing

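The ABF1 difference in abf1 ts, for which ABF1 was chosen, kept its sign under 23 other settings, at 1.29 to 2.005. Many of these settings could not move it and returned 1.61 by construction. They were the replicate block, no filter, no variance trend, other probe set rules and the fit on the 6 arrays of the comparison. Leaving out any rap1 array was another. The arrays of the abf1 series left out in turn gave 1.29 to 2.005. The ABF1 difference was 1.72 with quantile normalization and 1.57 with median centring. A filter at the 50th percentile removed ABF1 and TBF1, so neither has a value there. Among the members, calls in rap1 ts were 0 in the fit as reported, 1 with the replicate block, also with quantile normalization or median centring added (TBF1), 2 with the block and no filter (REB1 and TBF1), and 1 with no filter and the block shared by both series (REB1). All of these but the plain block were chosen after seeing the data. Calls were 0 with any array left out (0 to 0). Among the members other than ABF1, which was not tested there, calls stayed at 0 in 24 other settings in abf1 ts, 22 between the wild types and 23 for the difference of the mutant effects. ABF1 in rap1 ts changed sign without rap1 ts array 1 (0.16) and without pair 1 in the blocked fit (0.11, with or without the filter), and lay between -1.14 and 0.16 over single arrays left out. TBF1 in abf1 ts changed sign without abf1 ts array 2 (0.22; -0.84 to 0.22 over single arrays left out), and MCM1 between the wild types (0.10) under quantile normalization (-0.052), median centring (-0.015) and without abf1 wild-type array 2 (-0.035; -0.035 to 0.17 over single arrays left out). The cause was not tested. The block could not be fitted for the wild types against each other, since it lies within a series. The difference of the mutant effects needs arrays of all 4 groups, so it had no fit on 6 arrays. No detection calls were used, so the dim values of REB1 and CBF1 carry no statement of presence.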

Other observations

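The feature of largest positive log2 difference in abf1 ts was AFB1, an alpha-specific gene, with 1.76 (SE 0.44, limma adjusted p = 0.343). Its signal was 3286.4, 2046.3 and 1985.1 in abf1 ts, against 624.8, 661.3 and 794.4 in the abf1 wild type, and the groups did not overlap. The rap1 ts arrays had 222.5, 824.6 and 795.1, against 658.5, 524.2 and 869.4 for their wild type. MF(ALPHA)1 averaged 178 in abf1 ts and 135 in the abf1 wild type, and STE3 averaged 134 and 76.8 in the same groups.

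In rap1 ts 3 of 6 tested a-specific genes rose with the block, AGA2 (1.02), MFA1 (0.92) and MFA2 (0.76), and 4 of 7 haploid-specific genes, STE18 (0.83), HO (0.80), STE5 (0.74) and GPA1 (0.73); 25.0% of all features were called in either direction in that fit. Without the block 0 of either list were called by limma, with 2 and 3 higher at an unadjusted p under 0.05. Over all features 0.405% were called in that fit and 22.3% had an unadjusted p under 0.05, in either direction.

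Linker histone gene HHO1, which lies beside TBF1, had a log2 difference of -2.16 in rap1 ts and fell with the block (limma adjusted p = 0.00606, and 0.104 without it). It was named after its value was seen.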
